A study of Mus musculus with 6 samples.

Results

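The distal part of mouse chromosome 3, from 85 to 160 Mb on the mm10 build, was compared between MOSE-PAX8 and MOSE-NEO cells gene by gene along the chromosome. Both are stable lines of mouse ovarian surface epithelium, the simple epithelium that covers the ovary. MOSE-PAX8 is the experimental line, named for PAX8, a paired-box transcription factor that shapes the kidney, the thyroid and the Mullerian duct. MOSE-NEO served as its reference. Both lines were kept in G418 at 0.05 mg/mL, the labels name 1 line per group with no drug or time point, and 3 RNA sequencing libraries were made from each. Nothing states that these were independent cultures, so the spread within a line may be technical.

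The members were all protein-coding genes that start in this segment and had at least 60 counts summed over the 6 libraries, which was true of 405 of its 666 protein-coding genes. Lysmd1 (59 counts), Lrrc39 (58), Crabp2 (57) and Lrriq3 (55) lay just under that limit, and Hcn3 (61), Car14 (64), Gbp2b (65) and Tmigd3 (65) just above it. The low-count filter of edgeR passed 404 of the 405. The exception was Ctsk, cathepsin K, with 17, 7 and 6 counts in MOSE-NEO and 11, 22 and 4 in MOSE-PAX8. The segment was chosen because a lower and a higher stretch had been seen in this same comparison, so the fold changes and calls that follow describe the segment and carry no test of it.

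Library totals ran from 23623762 to 36367825 counts. Levels are given in CPM, counts relative to the library total scaled by its TMM factor, and a log2 fold change is that of MOSE-PAX8 over MOSE-NEO, with an approximate standard error (SE). Pax8 itself was counted 0, 1 and 1 times in MOSE-NEO libraries 1 to 3, and 2570, 2973 and 3544 times in MOSE-PAX8 libraries 1 to 3. Wt1, Upk3b, Krt7 and Podxl, markers of the ovarian surface, each had at least 688 CPM in every library, whereas Krt8 and Krt19 had at most 1.08 and 0.478 CPM. The sum of the 10 surface markers ran from 11018 to 12176 CPM over the MOSE-NEO libraries, against 6630 to 7674 CPM for MOSE-PAX8, although Cdh2 (114 against 290 CPM on average) and Nr2f2 (15.4 against 29.1 CPM) were higher in MOSE-PAX8. The sum of 5 stromal fibroblast markers was 14465 to 17266 CPM against 7210 to 8502 CPM. Nearly all of it came from Col1a2 (11512 against 4457 CPM on average), Col1a1 (2545 against 2005 CPM) and Dcn (1572 against 1419 CPM). Pdgfra and Lum had at most 0.159 and 0.164 CPM in any library. The sum of 7 leukocyte markers was 2.00 to 3.62 CPM against 4.84 to 6.47 CPM, with Adgre1 and Tyrobp at 0. Ptprc was at 0.0111 CPM in MOSE-NEO on average against 1.95 CPM in MOSE-PAX8, and Cd68 at 2.46 against 3.45 CPM. MOSE-NEO library 1 and MOSE-PAX8 library 2 held more lincRNA counts (0.317% and 0.330%) than the other 4 libraries (0.146% to 0.195%). The part of these differences in the results was not tested, and fewer cells of a kind cannot be told apart from less RNA per cell.

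The segment holds several families that arose by local gene duplication. The S100 genes encode small calcium-binding proteins, and next to them lies the epidermal differentiation complex, whose Sprr, Lce and involucrin-type genes build the cornified envelope of the skin. Further along lie the Gstm genes for mu-class glutathione S-transferases, which conjugate reactive compounds to glutathione, the Adh genes for alcohol dehydrogenases, and the Gbp genes for interferon-induced guanylate-binding GTPases. Such neighbours can share regulatory sequence, and near-identical copies can share sequencing reads.

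Of the 405 members, 343 had a promoter sequence in RefSeq on GRCm38.p6, the assembly behind mm10. Promoter stretches of 5 of them, written 5′ to 3′ on the strand of the gene and with exonic bases left out, are shown for Ddx20, which lies just ahead of the place where the shift turns, and for 4 genes that stood above their neighbours beyond it (Celsr2, Gstm1, Gstm2 and Gbp2). The capitals mark a CCAAT box (CCAAT) or a GC box (GGGCGG), and TATAAA was searched as well, each on both strands. These windows lie at chr3:105687575-105687821 (minus strand, Ddx20), chr3:108415580-108415829 (minus strand, Celsr2), chr3:108017974-108018223 (minus strand, Gstm1), chr3:107986454-107986670 (minus strand, Gstm2) and chr3:142620413-142620601 (plus strand, Gbp2).
Ddx20: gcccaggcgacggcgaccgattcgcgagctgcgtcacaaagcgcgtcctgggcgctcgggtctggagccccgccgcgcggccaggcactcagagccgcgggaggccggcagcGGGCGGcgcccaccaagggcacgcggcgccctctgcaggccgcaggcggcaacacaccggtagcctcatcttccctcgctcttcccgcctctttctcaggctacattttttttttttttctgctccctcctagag
Celsr2: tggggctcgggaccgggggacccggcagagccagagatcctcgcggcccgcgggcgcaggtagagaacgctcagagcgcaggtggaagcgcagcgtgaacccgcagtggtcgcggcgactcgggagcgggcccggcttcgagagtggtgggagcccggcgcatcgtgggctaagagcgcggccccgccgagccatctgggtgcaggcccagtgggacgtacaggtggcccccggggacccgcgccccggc
Gstm1: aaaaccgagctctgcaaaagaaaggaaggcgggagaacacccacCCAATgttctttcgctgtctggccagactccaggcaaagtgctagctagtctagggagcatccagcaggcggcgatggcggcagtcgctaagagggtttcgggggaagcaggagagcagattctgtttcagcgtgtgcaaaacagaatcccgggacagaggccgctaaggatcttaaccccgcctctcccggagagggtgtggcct
Gstm2: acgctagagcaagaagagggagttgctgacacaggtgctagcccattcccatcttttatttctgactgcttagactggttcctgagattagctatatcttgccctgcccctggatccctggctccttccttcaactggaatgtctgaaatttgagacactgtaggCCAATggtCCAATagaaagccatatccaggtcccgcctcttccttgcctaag
Gbp2: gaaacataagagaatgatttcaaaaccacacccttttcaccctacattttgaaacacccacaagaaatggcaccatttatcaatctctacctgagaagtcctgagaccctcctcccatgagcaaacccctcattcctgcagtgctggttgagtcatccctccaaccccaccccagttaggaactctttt

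Gstm2 held 2 CCAAT boxes close together, Gstm1 held 1, and Ddx20 held 1 GC box. Celsr2 and Gbp2 held none of the 3 motifs, although they differed greatly in base composition, with 32 CpG dinucleotides in the Celsr2 window and 0 in that of Gbp2. A CCAAT box stood in the 250 bases upstream of 34.4% of 189 genes before the turn, 36.4% of 154 genes after it and 33.9% of all 32851 windows. The GC box was found in 52.9%, 55.8% and 32.7%, and TATAAA in 9.52%, 9.09% and 12.4%. The segment genes passed the count limit and gave 1 window each. The 32851 windows had no count limit and could include several of 1 gene, so the 2 sets are not alike. Both sides of the turn were thus alike in these shares, and a match is a run of letters and not a shown binding site.

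Along the segment the shift changed direction once (the plot of fold change by gene position). The genes were ordered by start and split into 2 runs of at least 20 genes so that the log2 fold changes deviated least, in absolute terms, from the median of each run. The split fell between Tmigd3, which starts at 105.871 Mb, and Atp5f1, which starts at 105.943 Mb, and this place is called the turn. The sum of absolute deviations was 297 around 1 median and 203 around 2. Before the turn lay 225 tested genes, from Gatb at 85.574 Mb to Tmigd3, and after it lay 179, from Atp5f1 to Wls at 159.84 Mb.

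Before the turn the median log2 fold change was -0.54, a level of 0.688 times that of MOSE-NEO, and 203 of the 225 genes (90.2%) were below 0. The quartiles were -0.74 and -0.36. After the turn the median was 0.43, a level of 1.35 times that of MOSE-NEO, and 153 of the 179 genes (85.5%) were above 0, with quartiles of 0.18 and 0.69. For comparison, the median was 0.01 over 11475 tested protein-coding genes elsewhere, of which 48.5% were below 0. Changes of at least 1 on the log2 scale were uncommon, with 24 genes lower and 6 higher before the turn and 1 lower and 26 higher after it. Of the genes before the turn, 60.4% lay within 0.25 of their run's median, and 49.2% of those after it did.

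**Figure D1:**
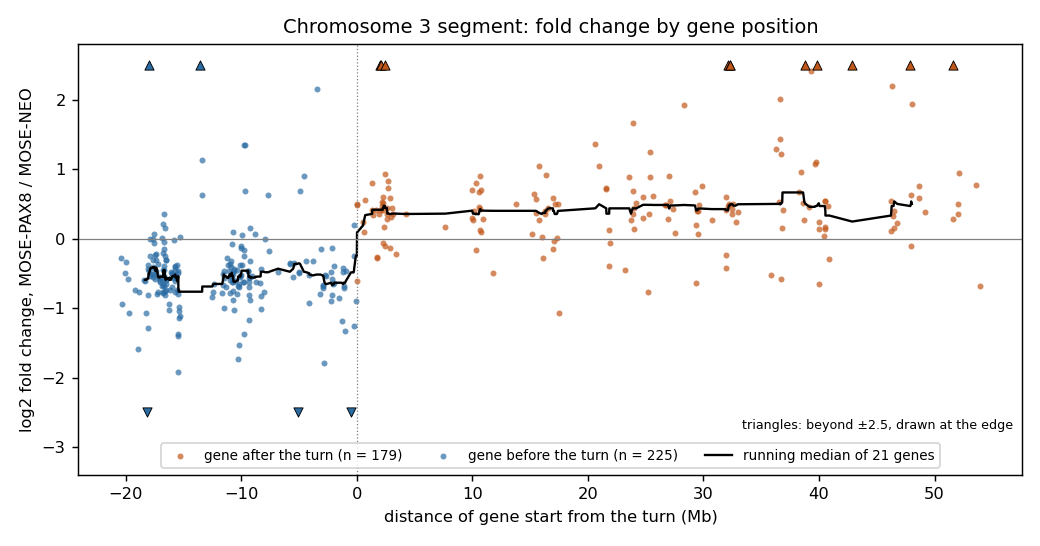
Log2 fold change of MOSE-PAX8 over MOSE-NEO for the 404 tested genes (points) against the distance of each gene start from the turn in Mb, with the running median of 21 genes as a line. The line runs near the run median of -0.54 before the turn, crosses 0 at it and runs near 0.43 after it; triangles stand for genes beyond the plotted range.

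Every MOSE-PAX8 library showed the shift and no MOSE-NEO library did (the plot of bin medians in each library). Ratios of CPM plus 0.5 to the mean of MOSE-NEO had medians of -0.52, -0.53 and -0.52 before the turn in MOSE-PAX8 libraries 1, 2 and 3. Each MOSE-NEO library set against the others of its line gave 0.01, -0.01 and -0.001. After the turn the MOSE-PAX8 medians were 0.43, 0.39 and 0.44, and the MOSE-NEO medians were -0.02, -0.01 and 0.01. The libraries of the lines therefore did not overlap in either run.

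As a share of all counts in a library, the genes before the turn took 2.10%, 2.06% and 2.12% in MOSE-NEO and 1.44%, 1.42% and 1.44% in MOSE-PAX8 (the plot of shares of library counts). The genes after the turn took 0.921%, 0.897% and 0.914% in MOSE-NEO and 1.17%, 1.16% and 1.19% in MOSE-PAX8. These shares use no scaling between libraries, and they too were separate between the lines in both runs.

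**Figure D2:**
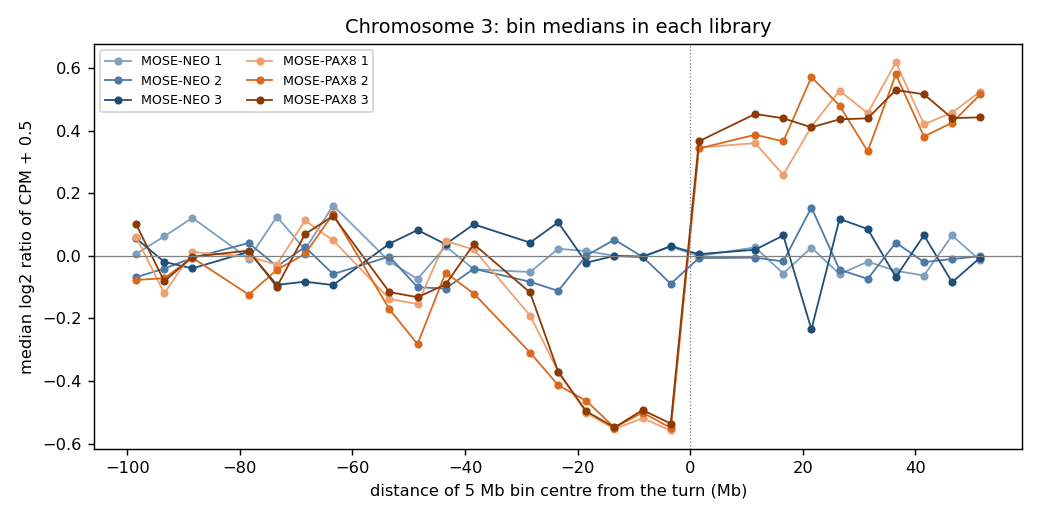
Median log2 ratio in 5 Mb bins along the whole of chromosome 3 for each library (lines), against the distance of the bin centre from the turn in Mb; MOSE-PAX8 libraries are set against the MOSE-NEO mean and each MOSE-NEO library against the rest of its line. Bins of under 7 genes are left out. The 3 MOSE-PAX8 lines leave 0 ahead of the turn, cross 0 together at the turn and stay above it to the end of the chromosome.

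In steps of 5 Mb from 85 to 105 Mb the medians were -0.53, -0.56, -0.54 and -0.54, over 37 to 76 genes each. The step from 105 to 110 Mb, with 43 genes, had a median of 0.35. From 115 Mb on the medians lay between 0.37 and 0.59, in bins of 8 to 23 genes, all but 1 of them thin, with under 20. The step from 110 to 115 Mb held only 2 genes. The longest unbroken series of genes below 0 had 37 genes, from Zbtb7b to S100a6, and the longest above 0 had 14, from Hadh to Bdh2.

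The lower run began a little before the segment does. When all tested protein-coding genes of chromosome 3 were divided into 3, 4 or 5 runs, the lower run started each time at Tlr2, at 83.836 Mb, and ended at Tmigd3, with 236 genes and a median of -0.54. With 3 runs, the 164 genes ahead of Tlr2 had a median of -0.05. The higher run always started at Atp5f1. Within the segment, 3 or 4 runs kept this place and set apart a stretch from Tspan2 (102.735 Mb) or Sike1 (102.996 Mb) to Tmigd3 with a median of -0.67, the lowest of the runs, while 20 genes from Notch2 to Sycp1 had -0.35.

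**Figure D3:**
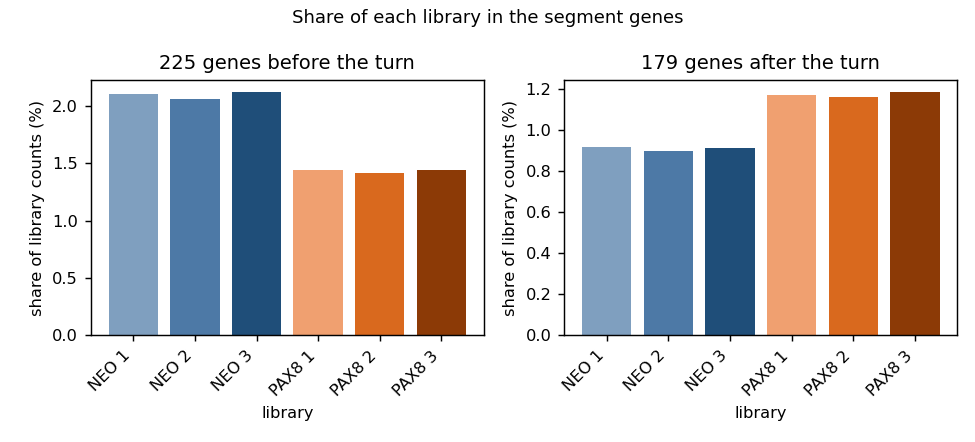
Share of all counts of each library, in percent, that fell on the 225 tested genes before the turn (left) and the 179 after it (right), as 1 bar per library from 0. Before the turn the MOSE-PAX8 bars (1.42% to 1.44%) are lower than the MOSE-NEO bars (2.06% to 2.12%), and after it they are higher (1.16% to 1.19% against 0.897% to 0.921%).

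By edgeR's quasi-likelihood test, adjusted over all 12313 genes tested, 298 of the 404 genes were called, set beside 33.9% of all genes. Of these, 164 were lower and 9 higher before the turn, and 12 were lower and 113 higher after it, where 16.1% of all genes were called lower and 17.9% higher. The libraries of the lines did not overlap for 174 lower and 9 higher genes before the turn and for 14 lower and 120 higher genes after it. Over all genes tested this was so for 22.2% with MOSE-PAX8 lower and 25.3% with MOSE-PAX8 higher. Since the segment was chosen on this comparison, nothing is read from these counts.

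Genes on the 2 sides of the turn differed in measures that the choice of the segment did not use. Before the turn there were 11.1 tested genes per Mb and after it 3.32. The median level in MOSE-NEO was 47.6 CPM before and 23.5 CPM after, the median exon length was 4208 and 5604 bases, and the median GC content was 51.4% and 45.1%. The spread between libraries of a line was similar, with a median SD on the log2 scale of 0.13 and 0.12 in MOSE-NEO and 0.11 and 0.11 in MOSE-PAX8. With the genes divided into 3 classes by level, from low to high, the medians were -0.54, -0.48 and -0.60 before the turn and 0.59, 0.46 and 0.35 after it. The low class includes genes that reached 60 counts through MOSE-PAX8 alone. In 3 classes of GC content they were -0.54, -0.55 and -0.51 before and 0.42, 0.46 and 0.41 after.

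Non-coding genes and pseudogenes of the segment, which the choice of members left out, were few. Of 9 that were tested before the turn, 8 were below 0, with a median of -0.81, and all 5 after it were above 0, with a median of 0.79. Among those called, the antisense RNA Gm15417 fell from 3.06 to 1.45 CPM before the turn, and Snhg8, a host gene of small nucleolar RNAs, rose from 5.39 to 9.33 CPM after it. They come from the same libraries and are no separate experiment, and antisense RNAs cannot be told apart from their partners unless counting used strand.

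The genes beside the turn were read one by one (the plot of genes on each side of the turn). Kcnd3, a pore subunit of a voltage-gated potassium channel, had 2.51, 2.04 and 2.26 CPM in MOSE-NEO and 0.246, 0.220 and 0.0925 CPM in MOSE-PAX8, a log2 fold change of -3.57 (SE 0.34). Ddx20, a helicase of the SMN complex that assembles splicing particles, had 44.5, 45.8 and 43.6 CPM against 37.6, 38.7 and 36.3 CPM (-0.25, SE 0.07). Inka2, an inhibitor of the kinase PAK4, had 197, 199 and 212 CPM against 86.2, 87.1 and 81.9 CPM (-1.25, SE 0.07). In these 3 genes every MOSE-PAX8 library lay under every MOSE-NEO library, although Ddx20 was not called in 4 of the 6 fits that left out a library.

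The next gene, Rap1a, encodes a small GTPase of cell adhesion. It had 34.66, 39.996 and 38.25 CPM in MOSE-NEO and 45.23, 39.07 and 44.42 CPM in MOSE-PAX8, which overlapped, with a log2 fold change of 0.19 (SE 0.09). Tmigd3, the last gene before the turn, had only 13, 5 and 22 counts in MOSE-NEO and 9, 4 and 12 in MOSE-PAX8, which overlapped as well. It overlaps Adora3, an adenosine receptor gene that is no member, so its reads may be shared.

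Atp5f1, subunit b of the mitochondrial ATP synthase and the first gene after the turn, had 94.9, 122 and 121 CPM in MOSE-NEO and 166, 146 and 162 CPM in MOSE-PAX8 (0.49, SE 0.11). Wdr77, a partner of the arginine methyltransferase PRMT5, had 86.3, 90.6 and 85.9 CPM against 124, 120 and 128 CPM (0.50, SE 0.07). Both were higher in every MOSE-PAX8 library. Their genes run in opposite directions and overlap at their starts.

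Ovgp1, an oviduct glycoprotein made by Mullerian epithelium, went the other way, with 12.8, 9.83 and 10.4 CPM in MOSE-NEO and 6.32, 9.18 and 6.16 CPM in MOSE-PAX8 (-0.61, SE 0.18). It was not called without MOSE-NEO library 1 or 3 or without MOSE-PAX8 library 1 or 3. Cept1, a phospholipid synthesis enzyme (24.1, 26.8 and 24.7 CPM against 32.1, 26.6 and 30.3 CPM), and Dram2, a lysosomal membrane protein (18.59, 20.998 and 20.88 CPM against 22.97, 18.76 and 22.44 CPM), overlapped between the lines. Between Inka2 and Lrif1, at 106.685 Mb, the genes that did not overlap were thus Atp5f1 and Wdr77, higher, and Ovgp1, lower.

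**Figure D4:**
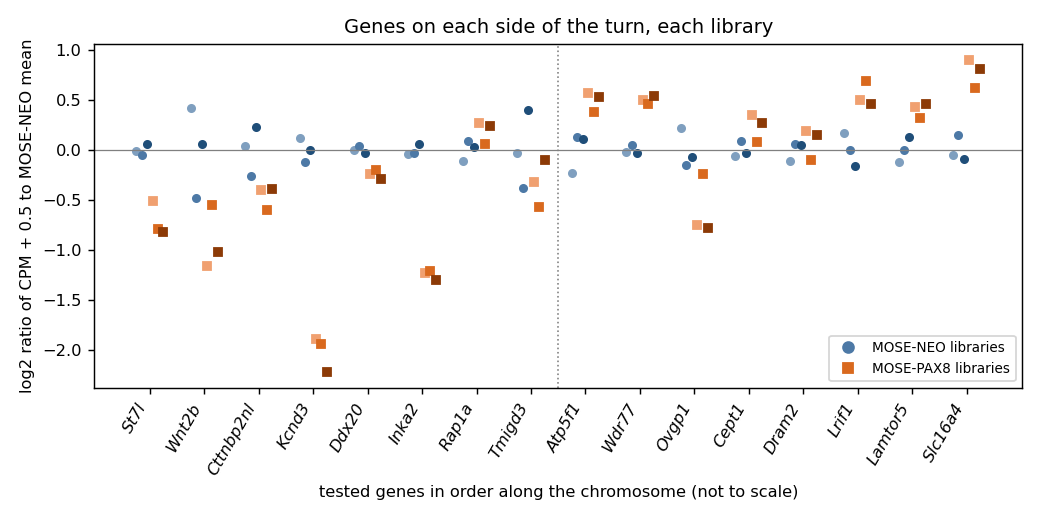
Log2 ratio of CPM plus 0.5 to the MOSE-NEO mean in each library (circles MOSE-NEO, squares MOSE-PAX8) for the 8 tested genes on each side of the turn (dotted line), in order along the chromosome. The squares of Inka2 lie below all circles, those of Rap1a and Tmigd3 overlap the circles, and those of Atp5f1 and Wdr77 lie above.

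The place of the turn was therefore known to within a few genes. Each MOSE-PAX8 library set alone against the MOSE-NEO mean gave Rap1a (libraries 1 and 3) or Atp5f1 (library 2) as the first gene after it, and over the 9 pairs of single libraries 4 gave Rap1a and 5 gave Atp5f1. A split ahead of Rap1a raised the sum of deviations by 0.235%, one ahead of Inka2 by 0.711% and one ahead of Lrif1 by 0.902%.

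To set single genes against their surroundings, each was compared with its local median, the median log2 fold change of the 20 nearest tested protein-coding genes on each side, without its own family. Before the turn 32 genes were called lower and 26 higher than their local median, and after it 31 lower and 42 higher. Over all genes with a local median 26.9% were called in either direction, 12.9% lower and 13.9% higher. The segment's 131 such calls fell to 85, and the 63 lower ones to 39, when MOSE-PAX8 library 3 was left out. Before the turn, 18 lower and 14 higher calls were then made, and 17 higher ones without MOSE-NEO library 3. Close to the turn the local median mixes both runs, and for Cept1 and Dram2 the deviation changed sign when the run median replaced it.

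The S100 genes lay in the lower run. Of 14 listed genes 9 were members, 7 fell and none rose, with a median log2 fold change of -1.05 beside a local median of -0.53, and 3 of the 9 were called lower than their local median. Without 1 library, 7 or 8 fell, and 2 to 4 were called lower than the local median. In the lower run as a whole, with all libraries, 164 of 225 tested genes were called lower and 32 lower than their local median.

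S100a6, the most abundant of them, binds annexins and had 1621, 1428 and 1928 CPM in MOSE-NEO and 884, 653 and 769 CPM in MOSE-PAX8 (-1.11, SE 0.15). S100a1, best known from heart muscle, had the largest fall of the family, from 205, 237 and 232 CPM to 70.6, 53.0 and 54.3 CPM (-1.92, SE 0.12). S100a13, which takes part in release of FGF1, had 19.9, 22.2 and 22.4 CPM against 8.48, 7.95 and 7.92 CPM (-1.40, SE 0.09). These 3 were also called lower than the local median, S100a6 not without MOSE-NEO library 3 or MOSE-PAX8 library 3. S100a1 and S100a13 lie head to head, with their starts next to each other.

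S100a4, linked to cell motility, fell from 10.58, 7.782 and 11.82 CPM to 6.10, 4.56 and 4.56 CPM, and S100a16 from 4.67, 5.91 and 6.44 CPM to 2.16, 2.77 and 3.30 CPM. S100a10, the annexin A2 partner, had 131, 137 and 164 CPM against 86.91, 88.92 and 98.97 CPM (-0.65, SE 0.10), and S100a11 had 87.9, 121 and 105 CPM against 61.3, 58.7 and 64.7 CPM (-0.77, SE 0.11). All 4 fell without being called lower than their local median. S100a3 and S100a7a, at under 2 CPM, overlapped between the lines. Outside the segment no S100 gene had enough counts to be tested. Of 6 annexin and S100-linked genes tested there, Anxa2 (435 to 347 CPM), Ahnak (410 to 265 CPM) and Anxa11 fell and none rose. Among all genes tested, 16.1% were called lower. Anxa11, on chromosome 14, had a log2 fold change of -0.40 beside a local median of -0.38. The count of falls was 1 when any of MOSE-NEO libraries 1 to 3 or MOSE-PAX8 libraries 2 and 3 was taken out.

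**Figure D5:**
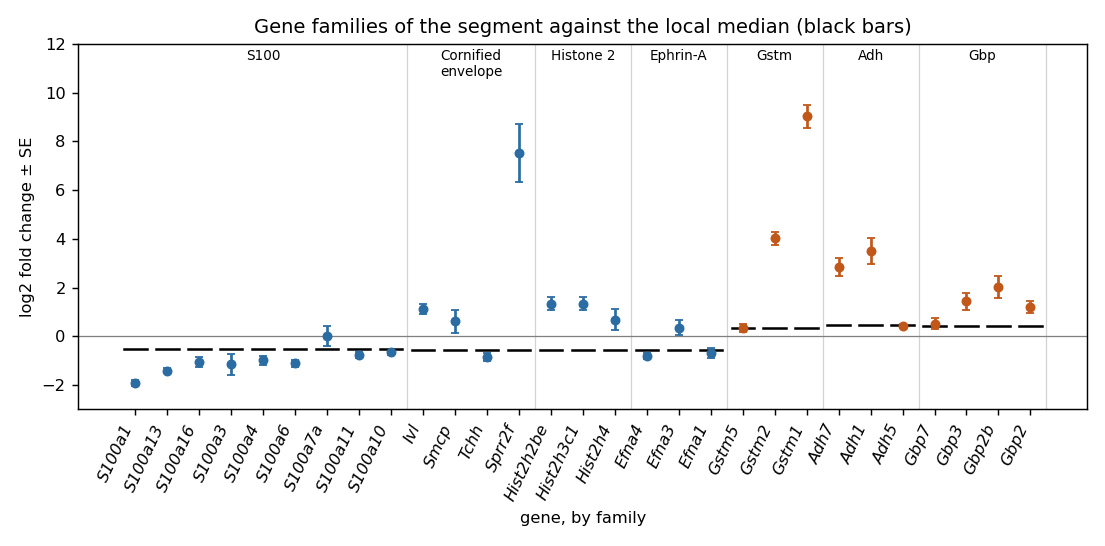
Log2 fold change of MOSE-PAX8 over MOSE-NEO with its SE (points and bars) for the tested members of 7 gene families, and the local median of each gene (black bars). S100a1 and S100a13 lie below their bars, the histone genes, Ivl and Sprr2f above theirs, and Gstm1, Gstm2, Adh7 and Adh1 far above theirs; the height of Sprr2f depends on the fit because MOSE-NEO had no counts.

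The cornified envelope genes were almost silent. Of 53 in the segment 35 had 0 counts in all libraries and 13 had 1 to 59 counts, and 4 were members, the remaining gene being Sprr2g. Ivl, involucrin, a scaffold of the envelope, rose from 20.05, 25.13 and 32.4 CPM to 53.2, 46.9 and 69.6 CPM (1.129, SE 0.19) where the local median was -0.57. Sprr2f, a small proline-rich envelope protein, had no count in MOSE-NEO and 12, 33 and 29 counts in MOSE-PAX8. That is at least 20.7-fold higher against 3 counts over the MOSE-NEO group. Sprr2f reached the count limit for members through MOSE-PAX8, so that a rise was bound to appear. Tchh, trichohyalin, fell from 6.10, 5.52 and 5.81 CPM to 3.39, 3.49 and 2.84 CPM (-0.84, SE 0.16), and Smcp overlapped.

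Sprr2g, annotated as a polymorphic pseudogene and so no member, had 0, 2 and 0 counts in MOSE-NEO and 1517, 2154 and 2555 in MOSE-PAX8, a mean of 62.6 CPM. It lies beside Sprr2f, the Sprr2 copies are near-identical, and the share of reads between them is uncertain. The other Sprr2 genes listed had 0 to 0.0613 CPM on average in MOSE-PAX8. The sum of 6 keratinocyte markers was 6.08 to 6.39 CPM over MOSE-NEO against 10.2 to 12.4 CPM over MOSE-PAX8, and its part in these values was not tested. Among them, Krt1 was at 0 and Krt5 and Trp63 had at most 0.123 CPM in any library, while Krt10 rose from 5.12 to 9.45 CPM. Of 6 cornified envelope genes tested elsewhere 2 rose, Krt10 and the desmosome protein Dsp, and Evpl, envoplakin, fell. Among the fits that left out 1 library, Dsp was called in that without MOSE-NEO library 2 alone.

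Of 10 listed histone cluster 2 genes 3 were members, and 2 of them rose. Hist2h2be had 1.24, 1.48 and 0.797 CPM in MOSE-NEO and 2.49, 2.95 and 3.45 CPM in MOSE-PAX8 (1.35, SE 0.27), and Hist2h3c1 had 0.985, 0.609 and 0.896 CPM against 2.05, 2.64 and 1.73 CPM (1.35, SE 0.28). Both rose where the local median was -0.56, and Hist2h4 overlapped. Replication-dependent histone mRNAs carry no poly(A) tail, and copies of the cluster are near-identical, so these low levels are uncertain. Of the A-type ephrins, ligands of Eph receptors, Efna4 (12.3 to 7.07 CPM) and Efna1 (9.38 to 5.86 CPM) fell and Efna3, at under 1 CPM, overlapped. Efna1 was not called without MOSE-NEO library 1 or 3 or without MOSE-PAX8 library 2 or 3.

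The proteasome subunits Psmb4 and Psmd4, before the turn, fell (-0.46, SE 0.11, and -0.41, SE 0.07), and Psma5, after it, rose (0.60, SE 0.10). Rps3a1 and Rps27, ribosomal proteins before the turn, fell (-0.58, SE 0.10, and -0.76, SE 0.18), and Rpl34, after it, overlapped. None of these 6 was called apart from its local median. Of 11 genes listed for RNA splicing and processing, 1, Snapin, encodes a SNARE-associated protein and does not belong there by function. It fell and was called lower than its local median, the latter not in 5 of the 6 fits that left out a library. Among the other 10, Ints3, Prpf3 and Rbm8a fell, all before the turn, and Rbm15, Ptbp2 and Zranb2 rose, all after it, while 4 were not called. Of these 4, Sf3b4 was called higher and Fubp1 lower than the local median. Sf3b4 was not without MOSE-NEO library 1 or 2 or MOSE-PAX8 library 1 or 3. Neither Fubp1 nor Snapin was called lower without MOSE-NEO library 2 or MOSE-PAX8 library 1 or 3. The count of rises was 1 without MOSE-NEO library 2 or 3 or MOSE-PAX8 library 2, and Ints3 was not called in 4 of the 6 fits that left out a library.

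Among the most abundant genes, Kirrel, a nephrin-like adhesion protein, had 1154, 1067 and 1104 CPM in MOSE-NEO and 690, 628 and 630 CPM in MOSE-PAX8. Slc16a1, the lactate transporter MCT1, fell from 665, 663 and 788 CPM to 339, 290 and 297 CPM (-1.19, SE 0.10), further than its local median of -0.53. Both genes lie before the turn and were lower in all 3 MOSE-PAX8 libraries.

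After the turn, Ccn1, a matrix protein and target of YAP, rose from 227, 246 and 278 CPM to 557, 499 and 558 CPM (1.10, SE 0.10), and Cnn3, calponin 3, from 245, 272 and 282 CPM to 399, 365 and 422 CPM (0.57, SE 0.09). Csf1, the growth factor of macrophages, had 633, 634 and 591 CPM against 545, 525 and 468 CPM (-0.27, SE 0.09), and Ahcyl1, a regulator of inositol trisphosphate receptors, 617, 568 and 583 CPM against 516, 481 and 463 CPM (-0.28, SE 0.08). Both lay in the higher run with the sign of the lower one. Csf1 was not called in any of the 6 fits that left out a library, and Ahcyl1 was not in 4 of them.

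Among the genes of adhesion and signalling before the turn, the GTPase Nras fell from 276, 276 and 271 CPM to 172, 172 and 173 CPM (-0.67, SE 0.07), and Mcl1, a survival protein of the BCL2 family, from 454, 450 and 458 CPM to 291, 275 and 285 CPM (-0.68, SE 0.07). Neither was called apart from its local median. Of 6 adhesion proteins, Igsf3 and Ptgfrn rose and Vangl1, a planar cell polarity protein, fell, the last not being called without MOSE-NEO library 3 or MOSE-PAX8 library 3. The receptor Notch2 overlapped, at 175, 143 and 119 CPM against 128, 167 and 139 CPM. Of the 19 members of the signalling list, 5 rose and 7 fell. When any 1 library was left out 4 or 5 rose and 4 or 5 fell, with 4 falls without MOSE-PAX8 library 3. Among all 404 tested genes of the segment, 122 rose and 176 fell. The list spans both runs, and its median log2 fold change was -0.01 where the median of its local medians was 0.42. Of the 19, 15 lay below their local median, as did 194 of the 404.

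The mu-class glutathione S-transferases held 2 genes with large rises. Gstm1 had 2, 1 and 1 counts in MOSE-NEO and 624, 890 and 1147 in MOSE-PAX8, that is 17.1, 27.97 and 35.4 CPM. It reached the limit of 60 counts through MOSE-PAX8, so that a rise was bound to appear. Gstm2 rose from 1.21, 2.00 and 0.930 CPM to 17.7, 22.6 and 25.4 CPM (4.02, SE 0.25), where the local median was 0.35. Gstm5, in the same cluster, overlapped, with 6.20, 5.87 and 7.93 CPM against 8.86, 7.13 and 9.62 CPM (0.35, SE 0.17), a value at its local median. Gstm3, Gstm4, Gstm6 and Gstm7 were below 60 counts. The enzymes have similar sequences, so the division of reads between Gstm1 and Gstm2 is uncertain. Of 12 glutathione S-transferase genes tested outside the segment, Gsta3 (17.7 to 65.2 CPM), Gstt1 (0.877 to 3.58 CPM) and Gsta4 rose, and Mgst1 and Mgst2 fell, and the count of falls was 1 without MOSE-NEO library 2 or 3 or any 1 MOSE-PAX8 library. Gstcd, a gene with a glutathione S-transferase domain that lies in the segment, rose from 14.8, 14.8 and 15.9 CPM to 28.2, 25.8 and 30.7 CPM.

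All 3 alcohol dehydrogenases with enough counts rose, in a run where 113 of 179 tested genes were called higher, against 17.9% of all genes. Adh7, which oxidises retinol and ethanol, had 2.35, 2.83 and 3.78 CPM in MOSE-NEO and 13.2, 16.9 and 33.9 CPM in MOSE-PAX8 (2.83, SE 0.37). Adh1 had 2, 1 and 3 counts against 23, 20 and 41 counts. It reached the count limit for members through MOSE-PAX8, so that a rise was bound to appear. Adh5, the formaldehyde-oxidising form made in most tissues, had 66.5, 72.5 and 75.7 CPM against 98.7, 88.0 and 101 CPM (0.42, SE 0.08), close to its local median of 0.47. The first 2 were called higher than their local median.

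Of the guanylate-binding proteins Gbp2, Gbp3 and Gbp2b rose and Gbp7 was not called, with a median log2 fold change of 1.32 beside a local median of 0.44. Gbp2 had 8.23, 13.9 and 6.77 CPM in MOSE-NEO and 20.3, 24.5 and 21.5 CPM in MOSE-PAX8 (1.21, SE 0.23). Gbp3 had 0.604, 0.956 and 0.332 CPM against 1.56, 1.85 and 1.60 CPM, and Gbp2b had 4, 4 and 3 counts against 17, 24 and 13. Gbp7 had 1.91, 2.26 and 1.73 CPM against 2.68, 3.33 and 2.43 CPM and did not overlap either. Gbp2b reached the count limit for members through MOSE-PAX8, so that a rise was bound to appear. Gbp3 was also under that limit in MOSE-NEO and needed counts from MOSE-PAX8 to pass. The median of the family includes both genes. Gbp2 and Gbp2b were called higher than the local median with all libraries, Gbp2 in 1 of the 6 fits that left out a library, the one without MOSE-NEO library 2, and Gbp2b in none of them.

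The Gbp cluster on another chromosome and related interferon-induced GTPases and regulators were set beside it. Of 10 tested genes 6 rose, among them Gbp9, from 0.130 to 7.08 CPM, Tgtp1, from 3.78 to 24.6 CPM, and Irgm1, from 184 to 321 CPM. Within the segment, Adar, an interferon-induced RNA-editing enzyme before the turn, fell from 87.9, 88.0 and 79.8 CPM to 42.61, 45.009 and 45.34 CPM (-0.94, SE 0.07), lower than its local median, and Ifi44 and Ifi44l had 0 counts in every library.

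Several genes after the turn were near silent in MOSE-NEO and plainly present in MOSE-PAX8. Celsr2, an atypical cadherin of planar cell polarity, had 0.477, 0.435 and 0.398 CPM in MOSE-NEO and 20.7, 35.2 and 28.8 CPM in MOSE-PAX8 (6.0001, SE 0.26). Clca3a1, a secreted regulator of calcium-activated chloride channels, had 0, 1 and 0 counts against 334, 359 and 336, a ratio of 863 with a 95% counting interval of 155 to 34135. Ddah1, which degrades asymmetric dimethylarginine, an inhibitor of nitric oxide synthesis, rose from 0.445, 0.652 and 0.697 CPM to 10.1, 8.67 and 14.5 CPM (4.22, SE 0.28). The receptors Adgrl2, a latrophilin, and Ptger3, for prostaglandin E2, had no count in MOSE-NEO and 15, 28 and 32 and 28, 22 and 24 counts in MOSE-PAX8, at least 20.98-fold and 20.7-fold higher against 3 counts over the MOSE-NEO group. Clca3a1, Adgrl2 and Ptger3 reached the limit of 60 counts through MOSE-PAX8, so that a difference was bound to appear. Celsr2 and Ddah1 were also under 60 counts in MOSE-NEO and needed counts from MOSE-PAX8 to pass. A strong fall would therefore have left them out of the members.

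Some genes went against their run with every library apart. Before the turn these calls included Phgdh, Ptgfrn, Igsf3, Ivl, Hist2h3c1, Hist2h2be, Nes and Sprr2f. Igsf3, an immunoglobulin-superfamily adhesion protein, rose from 99.8, 86.6 and 101 CPM to 178, 159 and 197 CPM (0.89, SE 0.10). Phgdh, the entry enzyme of serine synthesis, rose from 41.7, 38.6 and 48.4 CPM to 66.9, 54.3 and 78.0 CPM (0.63, SE 0.14). Nes, nestin, an intermediate filament of progenitor cells, had 3, 3 and 4 counts in MOSE-NEO and 42, 48 and 76 in MOSE-PAX8. Nes and Sprr2f reached the count limit for members through MOSE-PAX8, so that a rise was bound to appear.

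After the turn the genes called lower were Prss12, Lef1, Wls, Syde2, Slc9b2, Ovgp1, Kyat3, Snx7, Dapp1, Ahcyl1, Csf1 and Dnajb14. These 12 became 4 to 7 when any 1 library was left out, with 4 without MOSE-PAX8 library 3. Slc9b2 was called in none of those 6 fits, Snx7 and Dnajb14 in 1, and Lef1 and Kyat3 in 3. Prss12, the secreted protease neurotrypsin, fell from 135, 135 and 163 CPM to 76.7, 64.9 and 64.6 CPM (-1.07, SE 0.11) where the local median was 0.38. Wls, needed for secretion of Wnt ligands, fell from 339, 330 and 362 CPM to 234, 190 and 220 CPM (-0.68, SE 0.09), and Lef1, a transcription factor of Wnt signalling, from 2.35, 3.30 and 2.66 CPM to 1.78, 1.60 and 1.45 CPM (-0.77, SE 0.22). Syde2 fell from 28.7, 28.7 and 26.9 CPM to 18.3, 17.6 and 17.9 CPM (-0.65, SE 0.08).

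Before the turn, Kcnd3, Insrr and Vtcn1, all with means under 4 CPM in either line, lay farthest below their local median. Of the genes with at least 10 CPM in the higher line and no overlap, Dennd2c, Adamtsl4, Cd1d1 and Ecm1 followed S100a1 in that order. Adamtsl4, a protein of microfibrils, fell from 57.3, 51.0 and 59.3 CPM to 16.9, 19.2 and 14.5 CPM (-1.73, SE 0.12), and Ecm1, extracellular matrix protein 1, from 214, 236 and 262 CPM to 91.1, 76.4 and 78.9 CPM (-1.53, SE 0.10). Cd1d1, which presents lipid antigens, fell from 12.04, 11.78 and 14.54 CPM to 4.48, 4.40 and 3.82 CPM (-1.59, SE 0.14). Dennd2c, an exchange factor of Rab GTPases, fell from 15.6, 11.1 and 15.9 CPM to 4.24, 3.36 and 4.72 CPM (-1.79, SE 0.18).

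Among the genes linked to actin, 4 of 12 members fell and 5 rose, set beside 176 and 122 of the 404 tested genes of the segment. Tpm3, a tropomyosin before the turn, had 176, 180 and 174 CPM in MOSE-NEO and 119, 124 and 122 CPM in MOSE-PAX8 (-0.54, SE 0.07), near its local median of -0.60. Pdlim5, a PDZ and LIM domain protein of stress fibres after the turn, rose from 134, 113 and 123 CPM to 300, 271 and 332 CPM (1.28, SE 0.10). Arhgap29, a GTPase-activating protein, overlapped, at 289, 283 and 310 CPM against 315, 291 and 294 CPM, where the local median was 0.41. F3, tissue factor, the starter of blood coagulation, rose from 20.5, 22.3 and 27.6 CPM to 46.6, 40.4 and 58.5 CPM (1.05, SE 0.16).

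The same medians were taken for 2 stretches on other chromosomes, and further chromosomes were not described here. On chromosome 14 the median was -0.43 over 381 genes with 88.7% below 0, and on chromosome 7 from 5 to 35 Mb it was 0.33 over 269 genes with 21.6% below 0. Among the stretches set side by side, the part of chromosome 3 ahead of 80 Mb had a median of -0.05 over 155 genes.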

How the data were processed

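RNA sequencing counts of 3 MOSE-NEO and 3 MOSE-PAX8 libraries were used, with groups read from the titles. Each table deposited by the authors holds whole-number counts of reads for every Ensembl gene of 1 library. The submitters' processing notes name cutadapt 1.13, STAR, HTSeq 0.6.1p1, DESeq2 and the build mm10. Which annotation and strand setting were used, and what was done with multi-mapping reads, is not given in the sources used here. Symbols, positions, lengths and GC content came from GENCODE M21, which matched 24991 of 25006 identifiers. Coordinates are mm10, counted from 1.

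The lines were compared with edgeR 4.0.16 (R 4.3.3) on the counts, by the quasi-likelihood test with TMM factors, filterByExpr and Benjamini-Hochberg adjustment over all genes tested, and with calls made below an adjusted p of 0.05. For the test against the local median, that median was added to the offset of the MOSE-PAX8 libraries. The SE was not estimated directly. It is the absolute log2 fold change divided by the square root of the F statistic of the quasi-likelihood test. Runs had at least 20 genes. Intervals and limits of 3 counts cover counting error only. The fits were first tested on simulated counts. Replicates of a line differed by more than sampling noise, with a chi-square of at least 13.5 per degree of freedom.

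The members and all 22 gene lists were chosen with earlier results of these data known. Genes were named by rule: every member of each list (the 6 most abundant where there are more), the 8 farthest above and below the local median with at least 10 CPM in the higher line and no overlap between the lines, the 5 on each side of the turn and the 4 most abundant of each side. Other genes were named after their values were seen. Alternatives were DESeq2 1.42.0, limma-voom (limma 3.58.1), other scaling factors, filters and windows, the replicate block and each library left out. A few genes that the rule names are not reported here.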

Additional observations from a re-analysis of the deposited data

How the results depend on the processing

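The turn stayed at Atp5f1 (105.943 Mb) under limma-voom, DESeq2, upper-quartile or RLE factors, without a low-count filter, with squared deviations, with each library or both lincRNA-rich libraries left out, with non-coding genes added and without the families, and lay at Rap1a (105.727 Mb) with a filter of 1 CPM in 3 libraries or with members of at least 600 counts. The median before it was -0.52 with upper-quartile factors and -0.55 to -0.52 with 1 library left out, and that after it 0.42 to 0.44. The count of segment genes called, 298, became 251 to 282, and its 131 calls against the local median 85 to 111, with 1 library left out. Those lower than the local median, 63 in all, became 39 to 56, with the lowest value without MOSE-PAX8 library 3; the smaller number of libraries is part of each such fit. The deviation of Cept1 was -0.11 without the low-count filter. With the run median in place of the local window, which was added after seeing the data, it was -0.19 for Cept1 and -0.34 for Dram2, and 121 genes were called.

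With the replicate block the count of segment genes called was 288, and the count of segment genes called against the local median was 115. Same-numbered libraries correlated at -0.49, 0.06 and 0.48 in their deviations from the line means, so the labels give only a shared number; MOSE-NEO library 1 correlated best with MOSE-PAX8 library 2, at 0.67. Among 90 named genes over all settings, the log2 fold change lost its call 51 times and gained one 6 times, and never reversed. The deviation from the local median did so 54 and 19 times, and the reversals are those of Cept1 and Dram2 given here. Depth limits the genes near 60 counts and those with 0 to 3 counts in MOSE-NEO, whose fold changes are bounds or carry wide intervals.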
